A study of Mus musculus with 11 samples.

Results

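The Krüppel-like factors (KLFs) are zinc finger proteins that bind GC-rich and CACCC sequences in promoters and enhancers. The family divides by cofactor into a group of mainly activators (here Klf2, Klf4, Klf6 and Klf7), a group that represses through the corepressor CtBP (Klf3 and Klf12), and a group that represses through the corepressor Sin3A (Klf9, Klf10, Klf11 and Klf13). In blood cells they are known for quiescence and trafficking of lymphocytes (Klf2), monocyte differentiation (Klf4) and early blood formation (Klf6). All peaks assigned by Entrez gene identifier to these 10 genes were taken, which gave 136 of 94410 peaks and 10 of 20810 genes. The genes were chosen by symbol with the authors' changes against young cells already known, and no numeric threshold was applied. A called peak in at least 1 comparison with young was carried by 9 of the 10 genes. Of all 20791 genes with a symbol, 7936 carried one. A gene with more peaks has more chances of a call, and the number of peaks was not adjusted for. The values below are therefore a description, and the authors' calls are given without a test of the family.

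The assay was ATAC-seq, where a transposase inserts sequencing adapters into accessible chromatin. It was run on haematopoietic stem cells (HSCs) isolated at steady state from the marrow of mice. All groups carried the genotype Gfplc3/Gfplc3, a GFP-LC3 reporter whose GFP is lost as autophagy degrades it, and no source used here gives the age in numbers. The groups were 5 libraries of young, unfractionated HSCs, 3 of old AThi HSCs (GFPlo) and 3 of old ATlo HSCs (GFPhi), the old ones sorted in pairs from 3 numbered samples. The title of the series calls AThi cells autophagy engaging and ATlo cells non-engaging. Age and sorting by GFP changed together in both comparisons with young, isolation took 2 days, and day, age and sorting cannot be told apart in them. The authors' deposited tables gave 1 log2 change, its standard error (SE) and its p-value per peak and comparison, from all 11 libraries, and a mean normalised count as the level. They held no value per library, so values by sample cannot be shown and the SE carries the spread between libraries. Whether the authors' fit took account of the pairs of old fractions is not stated. Peaks are termed called where the authors' deposited table lists an adjusted p under 0.05. In pooled cells, a lower value in every cell and fewer cells with open chromatin cannot be told apart.

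Promoter peaks were found for 11 of 11 markers of stem cells, at 51.7 to 341 counts per kb over all libraries. Of 4 T cell markers, Cd3e, Cd3g and Cd8a had none, and of 4 B cell markers Cd79a and Ms4a1 had none. Promoter peaks were present for 5 of 6 granulocyte and macrophage markers (21.7 to 195 counts per kb), 4 of 4 erythroid markers (46.4 to 173) and 4 of 4 stromal and endothelial markers (68.4 to 118). These levels are means over all libraries, and the part of other cells in the results was not tested.

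The start sites are shown first because 3 of the 6 lower calls of the family in old AThi and 5 of the 8 in old ATlo lay at the strongest promoter peak of a gene. The sequences are the 250 bases before the start site in the RefSeq table of build GRCm38.p6, which held 9 of the 10 members, and Klf10 was not among them. Klf2 and Klf3 stand for start sites whose peaks were not called, and Klf9, Klf11 and Klf13 for those that were called in at least 1 old fraction. They lie at chr8:72318812-72319061 (plus strand) for Klf2, chr5:64803271-64803520 (plus strand) for Klf3, chr19:23140976-23141225 (plus strand) for Klf9, chr12:24651121-24651370 (plus strand) for Klf11 and chr7:63938916-63939165 (minus strand) for Klf13. Each runs 5′ to 3′ on the strand of the gene. Capitals mark the letters CACCC, which form the core of a KLF site, on either strand. They also mark the letters CCAAT, which form the core of a site for the factor NF-Y, on either strand. In Klf2 the first capitals are a match to the MEF2 motif.
Klf2: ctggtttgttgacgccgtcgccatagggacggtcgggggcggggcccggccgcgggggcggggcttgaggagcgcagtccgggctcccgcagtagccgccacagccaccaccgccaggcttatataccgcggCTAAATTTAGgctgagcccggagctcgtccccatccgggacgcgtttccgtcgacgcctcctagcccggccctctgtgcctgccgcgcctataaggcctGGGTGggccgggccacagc
Klf3: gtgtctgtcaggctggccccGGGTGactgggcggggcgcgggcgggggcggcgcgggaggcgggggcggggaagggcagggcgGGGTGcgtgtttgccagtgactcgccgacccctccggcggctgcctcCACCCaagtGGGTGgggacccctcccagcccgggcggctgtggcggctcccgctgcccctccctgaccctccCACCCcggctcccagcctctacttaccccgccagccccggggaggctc
Klf9: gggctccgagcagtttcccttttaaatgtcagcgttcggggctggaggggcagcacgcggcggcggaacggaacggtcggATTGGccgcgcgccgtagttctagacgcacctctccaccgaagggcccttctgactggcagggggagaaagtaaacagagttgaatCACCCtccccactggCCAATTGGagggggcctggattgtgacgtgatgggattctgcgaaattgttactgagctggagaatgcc
Klf11: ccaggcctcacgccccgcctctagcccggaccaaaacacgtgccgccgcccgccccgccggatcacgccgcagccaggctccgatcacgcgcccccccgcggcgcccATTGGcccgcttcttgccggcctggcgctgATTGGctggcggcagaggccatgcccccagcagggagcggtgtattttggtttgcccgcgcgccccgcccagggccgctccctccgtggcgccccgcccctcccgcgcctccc
Klf13: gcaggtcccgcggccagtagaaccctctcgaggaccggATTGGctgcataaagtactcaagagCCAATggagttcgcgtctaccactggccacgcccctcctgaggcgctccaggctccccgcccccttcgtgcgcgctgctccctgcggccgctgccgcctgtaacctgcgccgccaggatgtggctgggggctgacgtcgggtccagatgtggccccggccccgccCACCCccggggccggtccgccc

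In these windows, searched on both strands, Klf3 held 5 CACCC matches, Klf7 3, and Klf2, Klf9, Klf12 and Klf13 1 each, while Klf4, Klf6 and Klf11 held none. Over all 32851 windows of the same length in the table, 52.0% held CACCC, and 6 of the 9 member windows did. The GC-rich letters GGGCGG, not marked above, were found in 7 of the 9 member windows and in 32.7% of all windows. Klf3 held 6 matches, Klf4 and Klf11 4 each, Klf13 3, Klf2 2, and Klf6 and Klf7 1 each. Klf9 and Klf12 held none, and the difference from all windows was not tested. The match to the MEF2 motif in Klf2 began 118 bases before the start site, and 2.92% of all windows held one. MEF2 factors are known to bind the Klf2 promoter downstream of the kinase ERK5. CCAAT was found in 4 member windows, with 4 matches in Klf6, 3 in Klf9 and 2 each in Klf11 and Klf13, some of which overlapped each other. In all windows 33.8% held CCAAT. The 4 members with CCAAT all had a start-site peak called lower in at least 1 old fraction in the authors' deposited tables, and the 5 without it had none. This split was seen after the values were known, Klf12 had no promoter peak, and the windows of Klf7 and Klf12 belong to other start sites than those in the peak tables. It rests on the threshold, as the old ATlo changes overlapped. With CCAAT they were -0.43 for Klf6, -0.40 for Klf9, -0.50 for Klf11 and -0.45 for Klf13. Without it they were -0.07 for Klf2, -0.08 for Klf3, -0.42 for Klf4 and -0.35 for Klf7. All of these calls ended when changes were centred on the strongest promoters, as given below. Among start-site peaks in the top 10% of promoter levels, the median log2 change for old AThi against young was -0.21 in 693 genes with CCAAT and -0.23 in 677 without it. For old ATlo the medians were -0.30 and -0.32. A motif match is a description of the letters only, and the windows and the peaks come from different builds, so their overlap was not measured.

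The 136 peaks were unevenly spread over the genes. Klf12, a repressor known for acting on the AP-2α gene, had 28 peaks and Klf4 had 26, while Klf11 and Klf13 had 4 each. Promoter peaks, within 3 kb of a start site, numbered 18, and Klf12 had none. Distal intergenic peaks numbered 92 and intron peaks 24. Peaks of Klf4 reached 586 kb, those of Klf12 336 kb and those of Klf7 197 kb upstream of the start site. Those of Klf6 reached 332 kb downstream. Assignment to the nearest start site is therefore loose for these genes. For Klf2, 6 peaks between 24.7 and 46.6 kb downstream lay in intron 21 of Eps15l1, an endocytic adaptor gene. Of the summed level, 50.7% lay in promoter peaks over all members, with Klf13 highest, Klf11 at 81.4%, Klf4 at 30.2% and none for Klf12. All peaks of the series together had 54.1% of their level in promoters.

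**Figure D1:**
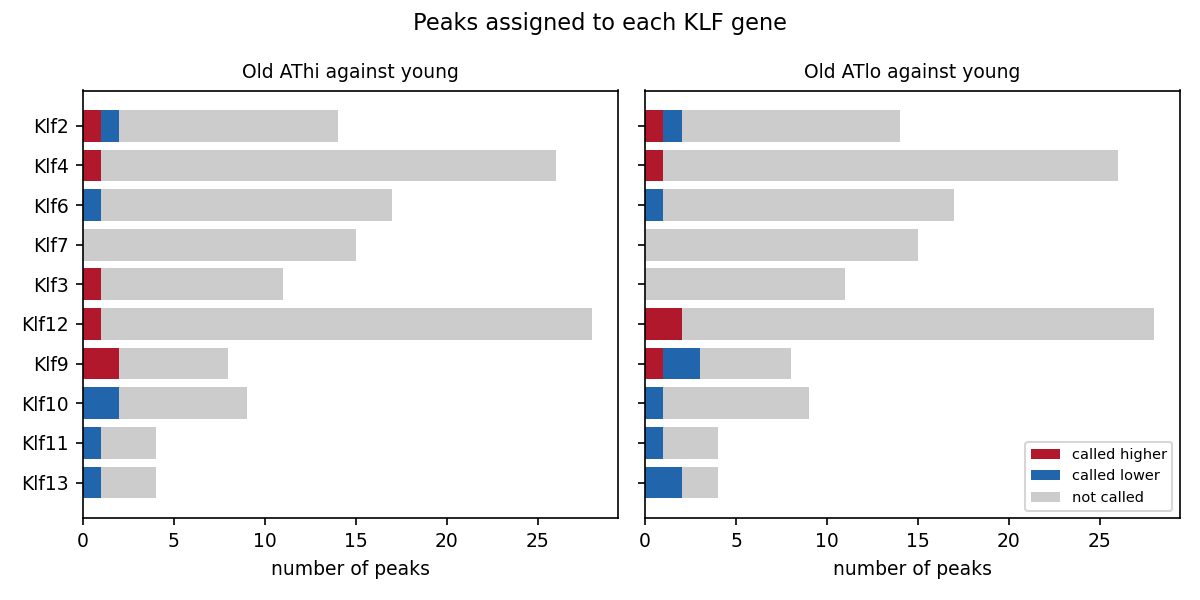
Number of peaks assigned to each KLF gene (horizontal axis), divided into called higher, called lower and not called in each old fraction against young. Called peaks are a minority for every gene except in old ATlo at Klf13, where they are 2 of 4, and Klf7 has none.

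In old AThi HSCs 6 member peaks were called higher than in young HSCs and 6 lower, of 129 with an adjusted p. The share over all peaks in that comparison was 7.57% higher and 2.74% lower. In old ATlo HSCs 5 member peaks were called higher and 8 lower, where all peaks gave 6.88% higher and 2.54% lower. Together 9.30% of member peaks were called in old AThi and 10.1% in old ATlo, against 10.3% and 9.42% of all peaks. In at least 1 fraction, 17 of the 136 member peaks and 12182 of all 94410 peaks were called. The median log2 change over the 136 peaks was -0.03 in old AThi and -0.07 in old ATlo, and over all 94410 peaks it was -0.04 and -0.03. Both comparisons use the same young libraries. Between old AThi and old ATlo no member peak was called, as for all peaks (0%), in a fit not stated to use the pairs.

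All higher calls of members lay outside promoters, where 118 of their 136 peaks lay. They were 6 of 111 peaks with an adjusted p there in old AThi and 5 of 111 in old ATlo. Over all peaks, 5383 of 7004 higher calls in old AThi and 5073 of 6370 in old ATlo also lay outside promoters. Of 22782 promoter peaks with an adjusted p in the series, 1621 and 1297 were called higher. Of all peaks outside promoters 7.71% were called higher in old AThi and 7.27% in old ATlo. Of the 18 promoter peaks of members, 4 were called lower in old AThi and 6 in old ATlo, where all promoter peaks gave 4.44% and 5.98%. Strong promoters were lower more often than others across the series. Among promoter peaks in the top 10% by level (at least 327 counts), 10% were called lower in old AThi and 21.8% in old ATlo, and 10 member peaks were in that set, with 3 and 6 called lower. The median log2 change of that set was -0.22 in old AThi and -0.30 in old ATlo, and that of its 10 member peaks -0.33 and -0.41. When log2 changes were centred on the median of that set, no member peak was called lower in either fraction. Called higher were then 12 member peaks in old AThi and 18 in old ATlo. Of all 94410 peaks, 12411 and 15588 were then called higher and 830 and 309 lower.

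**Figure D2:**
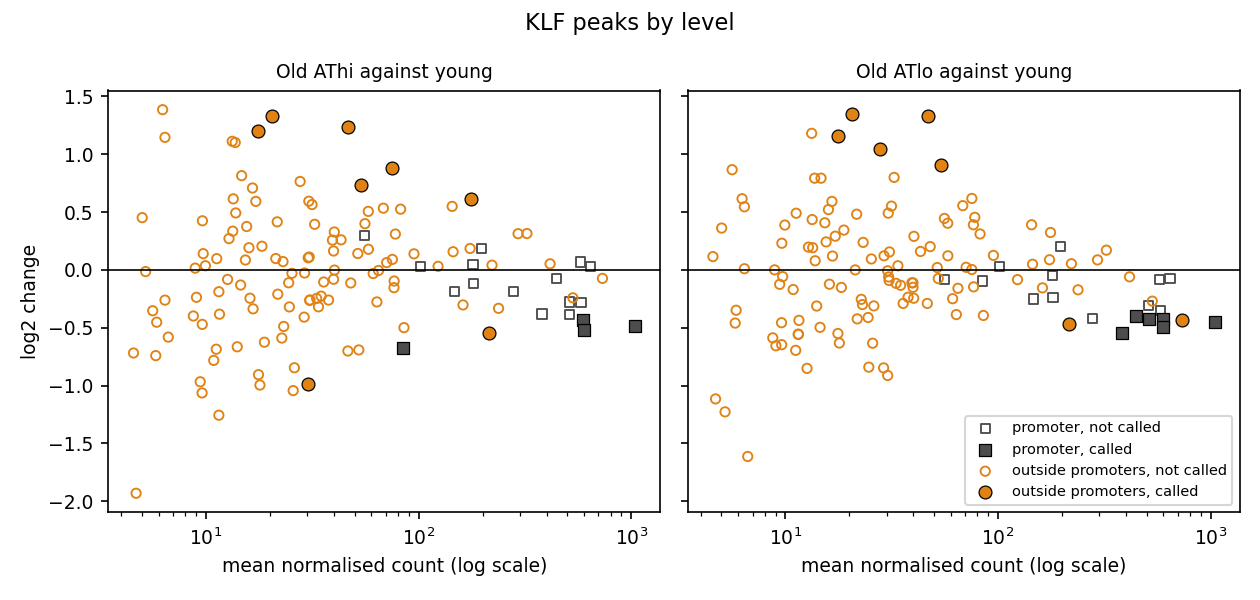
Log2 change against young (vertical axis) by mean normalised count (horizontal axis, log scale) for the 136 KLF peaks in each old fraction. Squares are promoter peaks and circles others, filled where called. Called higher peaks lie between 17.6 and 176 counts and called lower peaks reach 1044 counts, and the lower calls end when changes are centred on strong promoters.

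The strongest promoter peak of each gene lay over a start site. On the authors' scaling, those of Klf10, Klf11 and Klf13 were called lower in both old fractions and those of Klf6 and Klf9 in old ATlo, and all of these calls ended with centring. Those of Klf4 (-0.19 and -0.42) and Klf7 (-0.28 and -0.35) were also negative in the authors' deposited tables and not called, and those of Klf2 and Klf3 were the closest to 0 in old ATlo. The 9 genes with such a peak had levels of 269 to 670 counts per kb, with Klf4 lowest and Klf13 highest. With changes centred on strong promoters, the sign turned for Klf4 and Klf9 in old AThi and for Klf2 and Klf3 in old ATlo, and no start-site peak was called. The size of every decline given below is thus on a scale where strong promoters as a set lay 0.22 lower in old AThi and 0.30 lower in old ATlo.

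**Figure D3:**
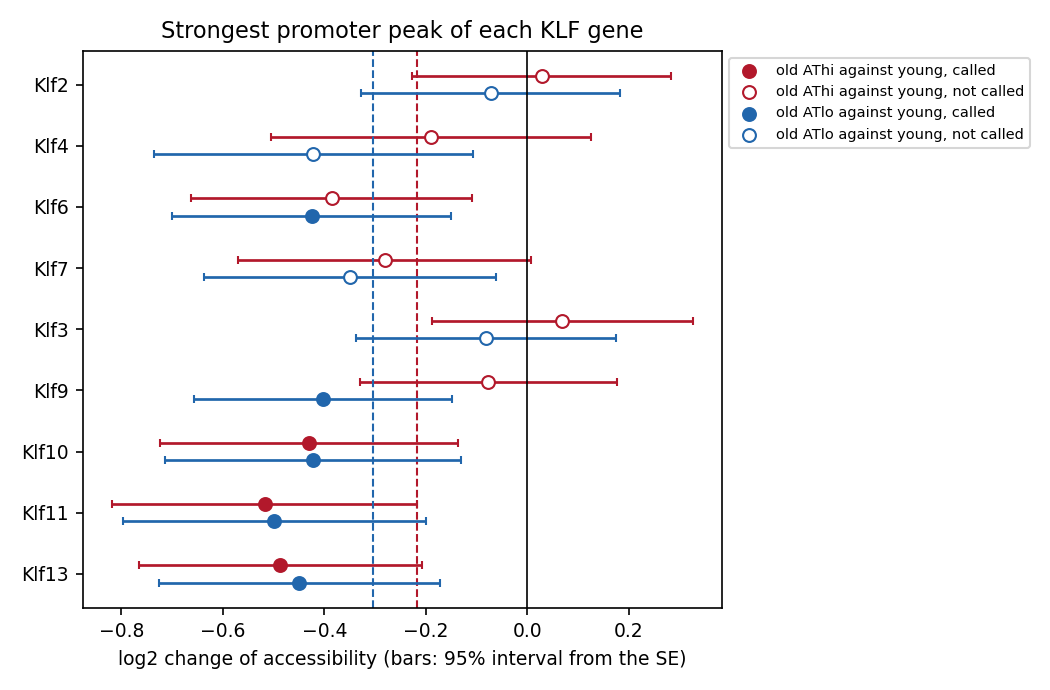
Log2 change of the strongest promoter peak of each KLF gene (horizontal axis) for old AThi (red) and old ATlo (blue) against young, with 95% intervals of 1.96 SE on each side, filled where called. Dashed lines are the medians of strong promoters, -0.22 and -0.30: both values of Klf6, Klf7, Klf10, Klf11 and Klf13 lie left of their lines and both of Klf2 and Klf3 right of theirs, and none is called after centring on these medians.

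Klf2, which keeps lymphocytes quiescent and controls their exit from tissues, had its start-site peak on chromosome 8 (73072419 to 73074007, mm39) at a mean level of 645 counts. In the authors' deposited tables it changed by 0.03 (log2, SE 0.13) in old AThi and by -0.07 (SE 0.13) in old ATlo, with 95% intervals of -0.23 to 0.28 and -0.33 to 0.18. Away from the promoter, a distal intergenic peak 37.0 kb upstream (73035355 to 73035956) fell in both fractions in the authors' deposited tables, by 0.54 (log2, SE 0.16, adjusted p = 0.0091) in old AThi and by 0.47 (SE 0.15, adjusted p = 0.0271) in old ATlo. A weak peak 12.1 kb downstream (73084977 to 73085377, 17.6 counts) was 2.30-fold higher in old AThi (adjusted p = 0.022) and 2.23-fold higher in old ATlo (adjusted p = 0.0267), per the authors' deposited tables. Around Klf2, called peaks thus went both ways while the start site lay between them.

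Klf4, a factor of monocyte differentiation and of reprogramming to pluripotency, had its start-site peak on chromosome 4 (55532180 to 55533217), at 279 counts. It was not called in the authors' deposited tables (log2 -0.19, SE 0.16, in old AThi and -0.42, SE 0.16, adjusted p = 0.0754, in old ATlo). The only call of its 26 peaks was a distal intergenic peak 184 kb upstream (55716019 to 55716902, 46.8 counts). It was 2.36-fold higher in old AThi (log2 1.24, SE 0.26, adjusted p = 7.74e-05) and 2.52-fold higher in old ATlo (log2 1.33, SE 0.25, adjusted p = 9.38e-06), the smallest adjusted p-values of the family in the authors' deposited tables. Stronger distal peaks of Klf4 were not called in the authors' deposited tables: one 119 kb upstream, at 323 counts, changed by 0.31 (SE 0.14) in old AThi and 0.17 (SE 0.14) in old ATlo.

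Klf6, needed for early blood formation and known as a tumour suppressor, had its start-site peak on chromosome 13 (5910622 to 5911695, 511 counts). This peak fell by 0.43 (log2, SE 0.14, adjusted p = 0.0312) in old ATlo, and its change in old AThi was -0.39 (SE 0.14, adjusted p = 0.058), in the authors' deposited tables. With only peaks of at least 20 counts tested, the old AThi change was called too (adjusted p = 0.0455). A peak 26.7 kb downstream (5938160 to 5939085, 30.3 counts) stood at 50.6% of the young level in old AThi (log2 -0.98, SE 0.35, adjusted p = 0.0491) and 53.1% in old ATlo (-0.91, SE 0.33, adjusted p = 0.061), per the authors' deposited tables. The values of both fractions were alike at each of these peaks, on different sides of the threshold.

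Klf7, known from neuron development, had no call among 15 peaks. Its start-site peak on chromosome 1 (64160168 to 64161774, 580 counts) changed by -0.28 (log2, SE 0.15) in old AThi and -0.35 (SE 0.15) in old ATlo in the authors' deposited tables. The peak outside promoters with the smallest p in old AThi lay in intron 1 of Klf7, where the authors' deposited table gave -1.04 (log2, SE 0.38, adjusted p = 0.0585). This peak was called lower when only peaks of at least 20 counts were tested. In old ATlo it was a distal peak 101 kb upstream, where the authors' deposited table gave 0.55 (log2, SE 0.30, adjusted p = 0.271). Of its 15 peaks 11 had a negative change in old AThi and 10 in old ATlo, none past the threshold.

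Klf3, a repressor that binds CACCC boxes and recruits CtBP, had its start-site peak on chromosome 5 (64959828 to 64961838, 576 counts), with changes of 0.07 (log2, SE 0.13) in old AThi and -0.08 (SE 0.13) in old ATlo in the authors' deposited tables. Its only call lay in intron 5 (64985377 to 64986168, 75.3 counts), 1.85-fold higher in old AThi (log2 0.88, SE 0.24, adjusted p = 0.00482), while the old ATlo change was 0.62 (SE 0.24, adjusted p = 0.0849), per the authors' deposited tables. The difference between the fractions at that peak was 0.27 (log2, SE 0.26, p = 0.31) in the authors' deposited table. Outside promoters, the smallest p in old ATlo was that of a peak 22.2 kb upstream, where the authors' deposited table gave -0.85 (SE 0.33, adjusted p = 0.0798).

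Klf12 had no promoter peak, and its strongest peak was distal, 135 kb upstream, at 532 counts, with changes of -0.24 (log2, SE 0.13) in old AThi and -0.27 (SE 0.13) in old ATlo in the authors' deposited tables. A peak in intron 6 on chromosome 14 (100135927 to 100136645, 53.7 counts) was 1.67-fold higher in old AThi (log2 0.74, SE 0.25, adjusted p = 0.032) and 1.88-fold higher in old ATlo (log2 0.91, SE 0.24, adjusted p = 0.00323), per the authors' deposited tables. In the authors' deposited tables a distal peak 28.7 kb upstream (27.7 counts) was 2.06-fold higher in old ATlo (log2 1.04, SE 0.33, adjusted p = 0.0236) and changed by 0.76 (SE 0.35, adjusted p = 0.154) in old AThi. Of the 39 peaks of the CtBP-binding group, 35 had an adjusted p, and 2 were called higher and 0 lower in each fraction. That is 5.71%, against 7.57% higher and 2.74% lower over all peaks in old AThi and 6.88% and 2.54% in old ATlo.

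Of the 25 peaks of the Sin3A-binding group, 2 had a higher and 4 a lower call in old AThi, and 1 had a higher and 6 a lower call in old ATlo. Over all peaks 2.74% and 2.54% were called lower, and over the strongest promoters, to which 6 of these peaks belong, 10% and 21.8%. All but 1 of the lower calls, the peak 4.89 kb upstream of Klf9 in old ATlo, lay in promoters. Of the 9 promoter peaks in the group, 8 had a negative change in old AThi and 9 in old ATlo, with medians of -0.38 and -0.40. In the activator group the medians of 7 promoter peaks were 0.03 and -0.07, but 3 of these are weaker peaks of Klf4 and Klf6 beside the start site. At the start sites themselves Klf4 (-0.42), Klf6 (-0.43) and Klf7 (-0.35) had values in old ATlo like those of Klf9 (-0.40) and Klf10 (-0.42), in the authors' deposited table. The 2 promoter peaks of the CtBP-binding group, both of Klf3, had medians of -0.06 and -0.17. The difference between the groups was not tested, since the groups are few peaks of few genes, and peaks of 1 gene are not independent.

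Klf11, a repressor induced by TGF-β, had the lowest start-site change of the family in both fractions. Its peak on chromosome 12 (24700554 to 24702504, 599 counts) stood at 69.8% of the young level in old AThi (log2 -0.52, SE 0.15, adjusted p = 0.0117) and at 70.8% in old ATlo (log2 -0.50, SE 0.15, adjusted p = 0.0173), per the authors' deposited tables. Only 3.15% of strong promoters had a lower change in old AThi and 9.35% in old ATlo. Its other 3 peaks were not called. In the authors' deposited tables the one 20.6 kb upstream had -0.23 (SE 0.28) in old AThi and -0.13 (SE 0.27) in old ATlo, and the one 16.6 kb upstream -0.15 (SE 0.22) and 0.39 (SE 0.20). The last was one in the 3′ UTR, with changes of -0.03 (SE 0.37) and 0.09 (SE 0.36) in the authors' deposited tables.

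Klf13, which binds the promoter of the chemokine gene Ccl5 in T cells, had the strongest peak of the family, at 1044 counts over its start site on chromosome 7 (63588218 to 63589775). It stood at 71.3% of the young level in old AThi (log2 -0.49, SE 0.14, adjusted p = 0.0102) and at 73.2% in old ATlo (log2 -0.45, SE 0.14, adjusted p = 0.0223), per the authors' deposited tables. A neighbouring promoter peak 0.947 kb inside the gene (63586925 to 63587716) had a lower value in old ATlo, by -0.55 (log2, SE 0.16, adjusted p = 0.0158), with -0.38 (SE 0.17, adjusted p = 0.13) in old AThi, in the authors' deposited tables. The peak in intron 1, 8.47 kb from the start site, was not called at -0.50 (SE 0.25) and -0.39 (SE 0.24) per the authors' deposited tables. All 4 peaks of Klf13 had negative changes in both fractions, from -0.55 to -0.12.

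Klf10, the other TGF-β inducible member, had 2 promoter peaks over start sites and 1 peak 1.44 kb upstream. The strongest, on chromosome 15 (38300716 to 38301879, 595 counts), stood in old AThi at 74.2% of the young level (log2 -0.43, SE 0.15, adjusted p = 0.0425) and in old ATlo at 74.6% (log2 -0.42, SE 0.15, adjusted p = 0.0488), close to the threshold in both, per the authors' deposited tables. The start-site peak next to it (38299087 to 38300500, 512 counts) was not called, at -0.28 (SE 0.15) and -0.31 (SE 0.15) in the authors' deposited tables. The upstream promoter peak (38302395 to 38302831, 84.4 counts) was lower in old AThi (log2 -0.67, SE 0.23, adjusted p = 0.0322) and changed by -0.10 (SE 0.21) in old ATlo in the authors' deposited tables. Outside promoters, the smallest p in old AThi was that of a peak 83.3 kb upstream (log2 -0.33, SE 0.14, with -0.17, SE 0.14, in old ATlo), and in old ATlo that of a peak 32.0 kb downstream at 4.69 counts, too low for an adjusted p (-1.12, SE 0.73), per the authors' deposited tables. Between the fractions the upstream promoter peak differed by -0.58 (log2, SE 0.25, unadjusted p = 0.0202), which did not pass adjustment over all peaks in the authors' deposited table.

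Klf9, a gene induced by steroid and thyroid hormones, was the member whose fractions lay farthest apart at the start site. Its start-site peak on chromosome 19 (23117927 to 23119137, 445 counts) changed by -0.08 (log2, SE 0.13) in old AThi and fell by 0.40 (SE 0.13, adjusted p = 0.0265) in old ATlo, in the authors' deposited tables. The same held for the strong peak 4.89 kb upstream (23111345 to 23113702, 732 counts), with -0.07 (SE 0.13) in old AThi and a fall by 0.44 (SE 0.13, adjusted p = 0.017) in old ATlo in the authors' deposited tables. Tested directly, old AThi lay above old ATlo by 0.33 (log2, SE 0.14, unadjusted p = 0.0228) at the start site and by 0.36 (SE 0.15, unadjusted p = 0.0122) at the upstream peak, and neither passed adjustment over all peaks (adjusted p = 1.0 to 2 significant digits) in the authors' deposited table. Of strong promoters 99.3% had a lower difference between the fractions than the Klf9 start site. The third peak near the start, 0.724 kb inside the gene, differed by 0.38 (SE 0.27) in the same direction in the authors' deposited table.

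Farther upstream, Klf9 had calls in the other direction. A weak peak 55.0 kb upstream (23062942 to 23063606, 20.5 counts) was 2.52-fold higher in old AThi (log2 1.33, SE 0.40, adjusted p = 0.0134) and 2.54-fold higher in old ATlo (log2 1.35, SE 0.39, adjusted p = 0.0109), per the authors' deposited tables. A peak 83.1 kb upstream (23033907 to 23035497, 176 counts) was 1.53-fold higher in old AThi (log2 0.61, SE 0.16, adjusted p = 0.00411), and its change in old ATlo was 0.32 (SE 0.16, adjusted p = 0.226), in the authors' deposited tables. The difference between the fractions there was 0.29 (log2, SE 0.18, p = 0.111) in the authors' deposited table. At the 55.0 kb peak it was -0.02 (SE 0.42) in the authors' deposited table.

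**Figure D4:**
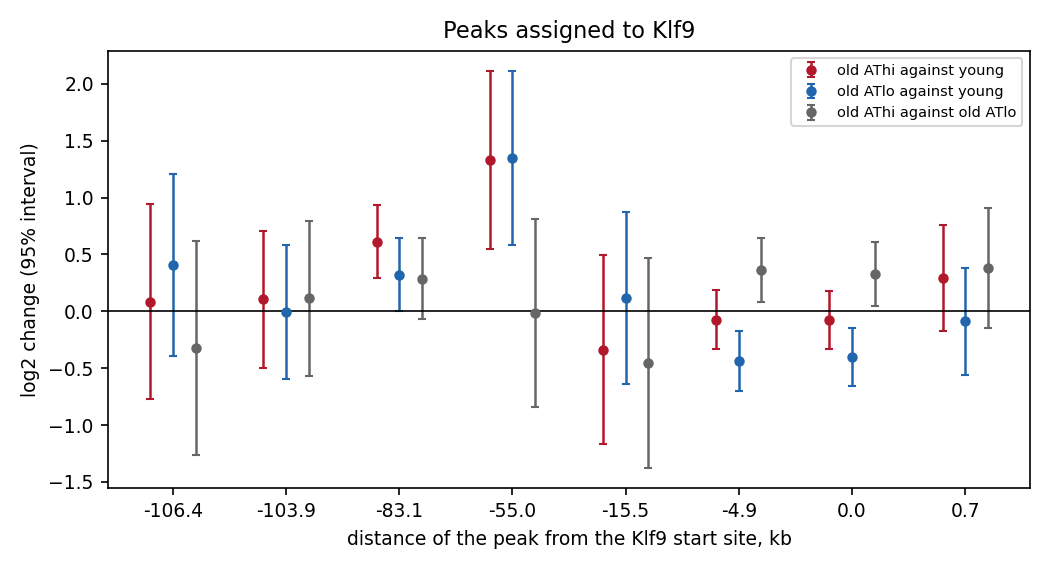
Log2 change of the 8 peaks assigned to Klf9 by distance from its start site (horizontal axis, kb, evenly spaced) in the 3 comparisons, with 95% intervals. At the start site and 4.89 kb upstream the old ATlo values lie below 0 and those of old AThi near 0 on the authors' scaling, and after centring on strong promoters the old AThi start-site value is above 0 and the old ATlo value is not called.

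Over the whole family, 6 of 136 peaks had an unadjusted p under 0.05 between old AThi and old ATlo in the authors' deposited table, and over all peaks 1683 of 94410 had one. Besides the 2 peaks of Klf9 and the upstream promoter peak of Klf10, these were a peak of Klf11 16.6 kb upstream (log2 -0.54, SE 0.24), one of Klf6 248 kb downstream (-0.97, SE 0.47) and one in intron 5 of Klf12 (-0.62, SE 0.31), per the authors' deposited table. These 4 had lower values in old AThi and the pair at Klf9 higher ones. The member share was not tested against that of all peaks, and the pair at Klf9 belongs to 1 gene. The spread of start-site differences over the 9 genes ran from -0.04 for Klf13 to 0.33 for Klf9, where strong promoters had a median of 0.09.

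**Figure D5:**
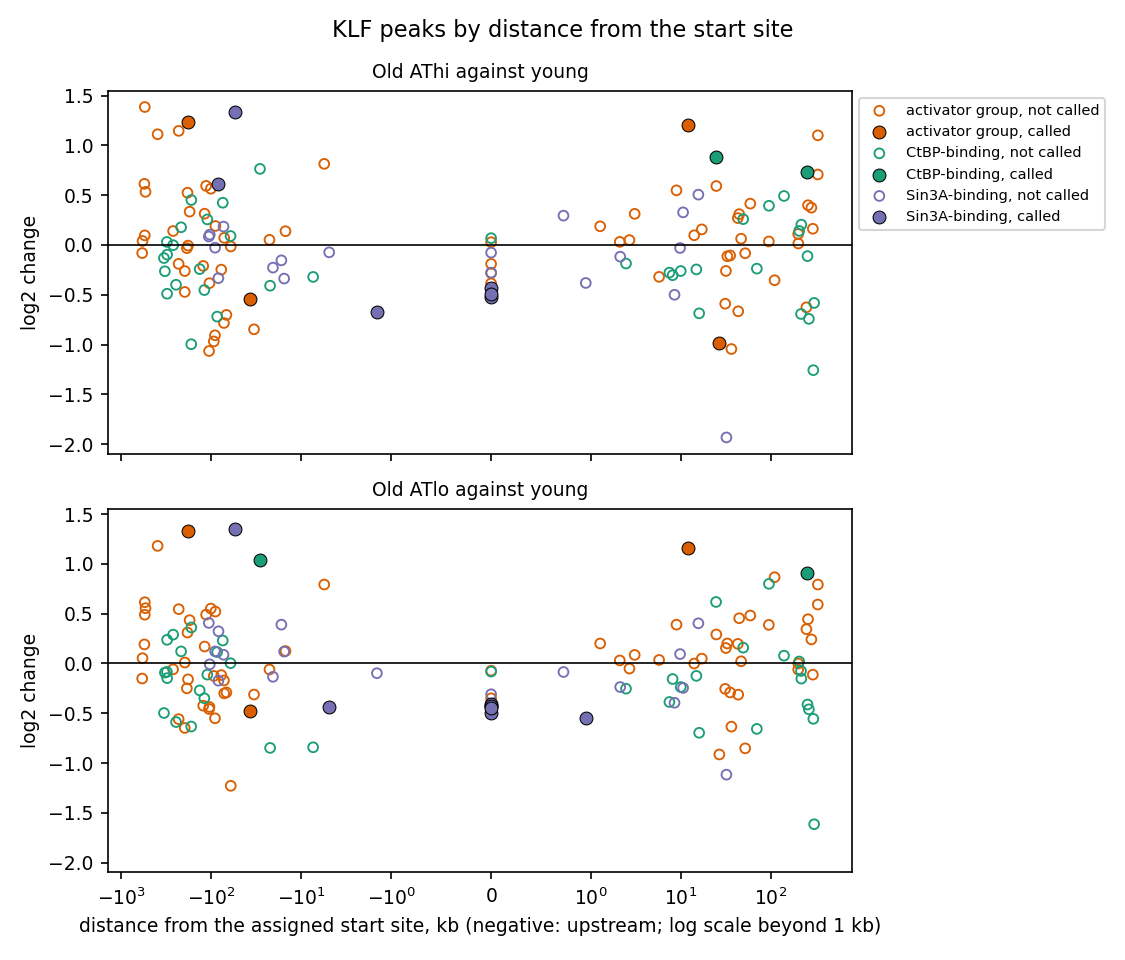
Log2 change against young (vertical axis) by distance from the assigned start site in kb (horizontal axis, log scale beyond 1 kb, negative upstream) for the KLF peaks, coloured by cofactor group and filled where called. Of the lower calls, 3 of 6 in old AThi and 5 of 8 in old ATlo lie at 0 kb, and higher calls lie more than 12 kb away, and the lower calls end when changes are centred on strong promoters.

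The KLF genes outside the chosen 10 had fewer peaks. Klf1, Klf5, Klf8, Klf14, Klf15, Klf16 and Klf17 had 23 peaks, of which 1 was called higher and 2 lower in old AThi and 2 higher and 0 lower in old ATlo. The share called was 13.0% and 8.70%, against 10.3% and 9.42% over all peaks. In the authors' deposited tables the promoter of Klf14, of the Sin3A-binding group, rose by 1.10 (log2, SE 0.25) in old AThi and by 0.72 (SE 0.25) in old ATlo, from a low level of 46.5 counts. A promoter peak of the CtBP-binding Klf8 fell by 0.65 (log2, SE 0.21) in old AThi and changed by -0.27 (SE 0.19) in old ATlo in the authors' deposited tables. Klf16, a further Sin3A-binding member with a strong start-site peak (722 counts), was not called (-0.25, SE 0.16, and -0.38, SE 0.16) in the authors' deposited tables. A distal peak of Klf5 fell by 0.87 (log2, SE 0.20) in old AThi, and one in the 3′ UTR of Klf15 rose by 0.61 (SE 0.19) in old ATlo, per the authors' deposited tables.

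Genes that act with the KLFs were taken from lists of the pathway. Their counts are read against all peaks, of which 10.3% were called in old AThi and 9.42% in old ATlo. The Sp factors, which bind the same GC boxes, had 3 peaks called higher and 1 lower of 65 in old AThi and 2 and 3 in old ATlo (6.35% and 7.94% of those tested). In the authors' deposited tables a promoter peak of Sp8 rose (1.80, SE 0.26, and 1.64, SE 0.26), a distal peak of Sp3 fell in old AThi (-0.87, SE 0.26) and the promoter of Sp4 fell in old ATlo (-0.50, SE 0.16). Upstream signalling genes of the MEKK3, ERK5 and MEF2 route and Piezo1 had 3 higher and 4 lower of 76 peaks in old AThi and 4 and 5 in old ATlo (9.59% and 12.3%). Mef2c went both ways in the authors' deposited tables, with a distal peak 18.9 kb upstream at 1.42 (SE 0.33) and 1.70 (SE 0.32) and a promoter peak at -0.48 (SE 0.14) and -0.46 (SE 0.14). Cofactors had 3 higher and 1 lower of 48 peaks in old AThi and 2 and 2 in old ATlo (8.51% in both). Ctbp2, the corepressor of Klf3 and Klf12, also went both ways in the authors' deposited tables. An intron 1 peak had 1.08 (SE 0.26) and 1.22 (SE 0.25) and its promoter -0.46 (SE 0.15) and -0.52 (SE 0.14). The peaks of Mef2c and Ctbp2 were named for their small p. Across the series, too, most higher calls lay outside promoters, and the strongest promoters had medians of -0.22 and -0.30. Ubiquitin ligases of KLF proteins had no call in old AThi and 1 higher and 1 lower of 30 peaks in old ATlo (6.90%).

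Known KLF targets had 10 peaks called higher and 2 lower of 109 in old AThi and 9 and 2 in old ATlo, with median changes of -0.04 and -0.02. The share called, 11.01% and 10.1%, was near that of all peaks (10.3% and 9.42%). Among the called ones was a distal peak of Cdkn1c, which encodes the cell cycle inhibitor p57 (1.75, SE 0.29, and 1.76, SE 0.29), in the authors' deposited tables. A distal peak of Kdr, the VEGF receptor gene, had 1.69 (SE 0.29) and 2.05 (SE 0.27) in the authors' deposited tables. These changes are log2 values for old AThi and old ATlo against young, and accessibility near a gene is not a measure of its expression.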

How the data were processed

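Young, old AThi and old ATlo HSCs gave 5, 3 and 3 ATAC-seq libraries, and 3 tables of the authors' own comparisons were analysed. Per the submitters' processing notes, reads went through Trim Galore with cutadapt and through BWA, peaks through MACS2 and ChIPseeker, and counting and testing used featureCounts and DESeq2. No source used here gives versions, duplicate handling or the transposase offset. Per the file headers, the authors deposited a mean normalised count per peak (a signal value), log2 fold changes with SEs, the Wald statistic (a score) and p-values with adjusted p-values. Values per library and depth were not given, so p-values measure the spread between libraries as the authors fitted it. An adjusted p was missing for 1831 peaks of at most 5.96 counts, 7 of them members, which were not called.

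Peaks were joined to symbols by Entrez identifier with the RefSeq GRCm38.p6 table (20791 of 20810 matched). Coordinates were taken as mm39, since gene positions equalled GRCm38 for 1 of 10 members. Intervals at 95% are 1.96 SE on each side. Adjustment, and centring on the median of all peaks, were tested on simulated data with the same shift for every peak (Python 3.11.15, SciPy 1.17.1). Centring on the strongest promoters, as used here, was not tested in this way. For each member the strongest promoter peak and the peak outside promoters with the smallest p against young were named, and further peaks were chosen after their values were seen. From each list up to 3 called peaks with the smallest p were eligible, and 1 of them is not reported here. Members and lists were chosen with earlier results of these data known.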

Additional observations from a re-analysis of the deposited data

How the results depend on the processing

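No paired analysis was possible because the tables held no values per library, and fits without a replicate were not run for the same reason. The main counts of called peaks against young were 6 higher and 6 lower in old AThi and 5 higher and 8 lower in old ATlo. At an adjusted p under 0.01 they were 3 and 1 in old AThi and 2 and 0 in old ATlo. At an adjusted p under 0.1 the lower calls in old AThi were 10 and the higher calls in old ATlo 8. Requiring a 2-fold change left 3 higher and 0 lower in old AThi and 0 lower in old ATlo. With at least 50 counts the higher calls were 3 in old AThi and 1 in old ATlo. Promoter peaks alone gave 0 higher in both fractions, and a limit of 100 kb gave 3 higher in old ATlo. Centring on the strongest promoters gave 12 higher and 0 lower in old AThi and 18 higher and 0 lower in old ATlo. Of all 94410 peaks it gave 12411 higher and 830 lower in old AThi and 15588 and 309 in old ATlo. The other 30 counts stayed within 1.5 times, and 18 moved by more, all of them against young. Among the 30 are all counts between old AThi and old ATlo, at 0 under each of the 8 settings. No peak of the whole series was called between these fractions at any setting, so those counts say nothing about stability. Under centring the start-site changes turned to 0.23 for Klf2 and 0.22 for Klf3 in old ATlo and to 0.027 for Klf4 and 0.14 for Klf9 in old AThi, and the 8 called start-site changes lost their call. Levels under 20 counts had a median SE of 0.51 in old AThi, against 0.15 at 100 counts or more, so small changes at weak peaks were not detectable.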
